A study of Rattus norvegicus with 6 samples.

Results

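The antioxidant defence genes Hmox1, Nqo1, Cat, Sod1 and Sod2 were followed in the injured rat esophagus. They were taken by their Ensembl identifiers, which makes 5 of the 32623 genes in the count table, and all 5 passed the filter on low counts. RNA had been sequenced from full-thickness esophagus, which holds mucosa, connective tissue and muscle together, of male wild type Sprague-Dawley rats, an outbred strain, aged 8 to 10 weeks. The control group was 3 untreated rats. The injured group was 3 rats in which a 3D-printed device had been passed by mouth to a depth of about 9 to 10 cm and moved back and forth for 8 to 10 friction cycles of about 3 to 5 s each. Tissue of both groups came from day 28, and each of the 6 libraries came from 1 animal. The series presents the injury as a model of esophageal stricture, a narrowing that follows scarring, and describes the remodelling as linked to inflammation. The comparison asks which transcripts differ in the injured organ at this single late time point.

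Cells remove reactive oxygen species in steps. Superoxide dismutases turn superoxide into hydrogen peroxide, in the cytosol mainly through the copper-zinc enzyme Sod1 and in mitochondria through the manganese enzyme Sod2, and catalase (Cat), mostly in peroxisomes, breaks the peroxide down to water and oxygen. Hmox1, haem oxygenase 1, degrades haem to biliverdin, carbon monoxide and iron. Nqo1 reduces quinones without releasing radicals, and both Hmox1 and Nqo1 are textbook targets of the transcription factor NRF2, which binds the antioxidant response element. Hmox1 is also strongly expressed by macrophages that take up red cells, and Sod2 is known to be induced by inflammatory cytokines.

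The members did not differ in a common direction. In injured animals Hmox1 stood about 2.30-fold higher, Cat and Sod1 stood at 0.691 and 0.673 of their control levels, and Sod2 and Nqo1 overlapped the controls. None of the 5 passed edgeR's quasi-likelihood test at an adjusted p under 0.05, a threshold that 1.35% of the 14481 tested genes passed. At an unadjusted p under 0.05, 3 of the 5 (Hmox1, Cat and Sod1) differed, against 21.4% of all tested genes (9.98% higher and 11.4% lower after injury). In the same 3 genes the levels of the groups did not overlap. Groups did not overlap in 29.2% of all tested genes, with injured animals higher in 13.5% and lower in 15.6%, and among the members 1 was higher and 2 were lower. The median log2 fold change (injured minus control) of the members was 0.05, and that of all tested genes was -0.01. In RNA of a whole tissue, fewer cells of a type and less RNA per cell cannot be told apart.

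**Figure D1:**
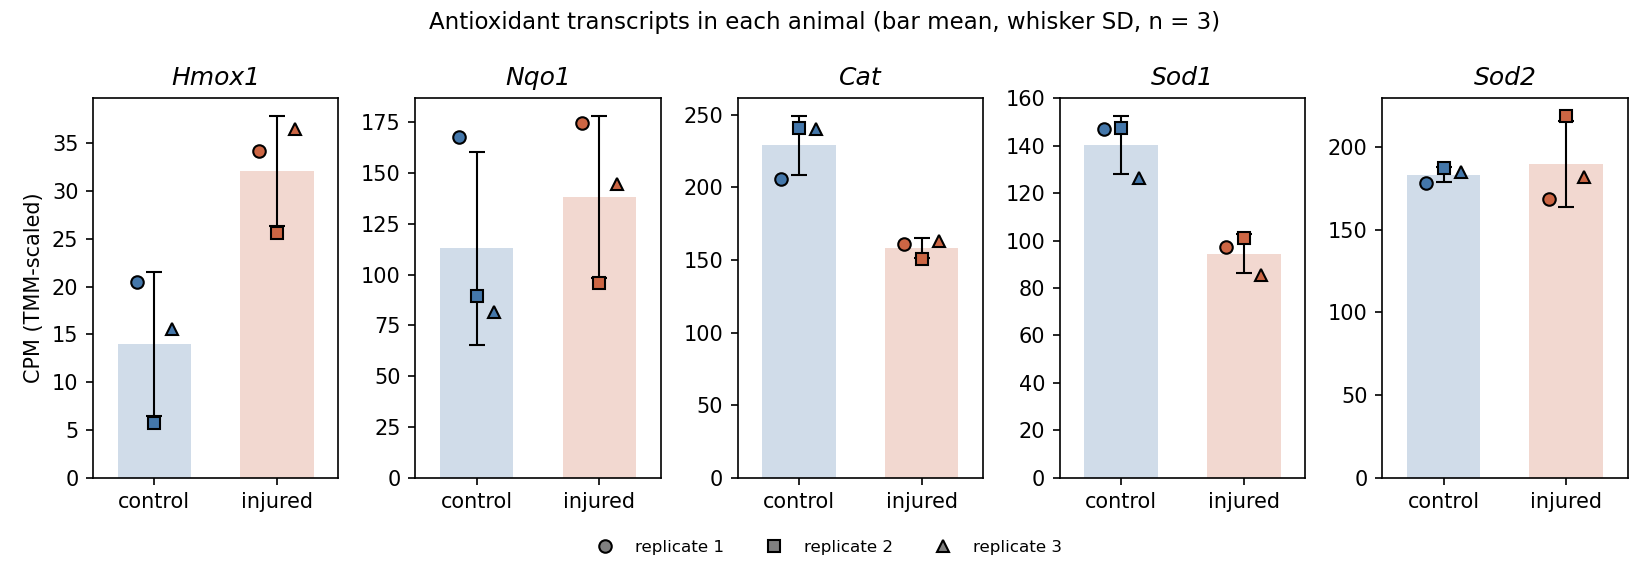
Level of each transcript in every library, in CPM (counts per 1000000 of a library, after scaling between libraries), for the 3 control and 3 injured animals. Bars are means, whiskers are SD over 3 animals and symbols are the replicates; Hmox1 lies higher and Cat and Sod1 lie lower in every injured animal than in every control, while Nqo1 and Sod2 overlap.

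Sod1 and Cat were the pair of members with lower levels in the injured esophagus. Neither passed edgeR's quasi-likelihood test at an adjusted p under 0.05. Promoter sequence from RefSeq, build GRCr8, was held for 4 of the 5 genes, all but Hmox1. The 250 bases before the start of these 2 genes are shown because their transcripts differed between the groups by nearly the same amount. The Sod1 stretch is chr11:42942573-42942822 on the + strand and the Cat stretch is chr3:110329527-110329776 on the - strand. Both are given 5′ to 3′, and capitals mark letters that match a searched motif.
Sod1: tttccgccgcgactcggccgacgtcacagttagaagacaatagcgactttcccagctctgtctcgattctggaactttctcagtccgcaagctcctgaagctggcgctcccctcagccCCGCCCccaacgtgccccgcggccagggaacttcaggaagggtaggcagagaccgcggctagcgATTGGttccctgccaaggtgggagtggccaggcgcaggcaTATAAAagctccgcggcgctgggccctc
Cat: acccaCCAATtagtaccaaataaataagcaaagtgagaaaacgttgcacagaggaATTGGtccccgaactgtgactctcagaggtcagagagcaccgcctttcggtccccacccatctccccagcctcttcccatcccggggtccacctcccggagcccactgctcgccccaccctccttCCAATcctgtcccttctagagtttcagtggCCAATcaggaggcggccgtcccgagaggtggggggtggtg
Searched on both strands were the CCAAT box (CCAAT), the GC box (GGGCGG), the TATA box (TATAAA) and the core of the antioxidant response element (TGACNNNGC), and matches of different motifs did not overlap in these stretches. The Sod1 stretch held 1 TATA box match, from base -28 relative to the start, 1 GC box match and 1 CCAAT match, both of these on the opposite strand. The Cat stretch held 4 CCAAT matches, 1 of them on the opposite strand, and 0 matches to the TATA and GC boxes. Among 33469 promoter windows of this length, a CCAAT match was present in 34%, a GC box match in 30.5% and a TATA box match in 12.9%. The core of the antioxidant response element matched in 10.1% of windows. It matched 1 time in the Sod2 window, on the opposite strand, and in none of the windows of Nqo1, Cat and Sod1. A match of letters is a description of the sequence only, and the absence of one covers only these 250 bases.

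Sod1 (ENSRNOG00000002115), the cytosolic superoxide dismutase, was measured at 147, 148 and 126 CPM in replicates 1 to 3 of the controls, and at 97.1, 101 and 85.3 CPM in replicates 1 to 3 after injury. CPM are counts per 1000000 of a library, with library sizes adjusted by TMM, the trimmed mean of M-values. All 3 injured animals lay below all 3 controls, and the spread was alike, with a control mean of 140.3 ± 12.2 CPM against 94.5 ± 8.16 CPM after injury (SD, n = 3 each). The estimated log2 fold change was -0.57 ± 0.11 (standard error; edgeR, adjusted p = 0.0632, unadjusted p = 0.00148). The 95% interval of the ratio of injured to control ran from 0.560 to 0.809. Of all tested genes, 9.31% had a lower fold change.

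Control and injured libraries carried the same replicate numbers but came from different animals. Deviations of same-numbered libraries from their group means correlated across genes at 0.392, 0.398 and 0.114. Values for libraries of unlike number were not kept, so these values alone do not show that the numbers pair the animals. Set against the control of the same number, injured Sod1 differed by -0.60, -0.55 and -0.57 on the log2 scale for numbers 1, 2 and 3, which is nearly the same step each time. With the replicate number as a block, Sod1 passed the test (log2 fold change -0.57, edgeR, adjusted p = 0.0336). In that fit 3.77% of all tested genes passed and Sod1 was the 1 member that did. No label says what a shared number stands for.

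Cat (ENSRNOG00000008364), which encodes catalase, was measured at 205, 241 and 240.0 CPM in the 3 controls, and at 161, 150.3 and 163 CPM after injury. The injured values lay within a narrow band below every control, with the highest injured animal at 1.08 times the lowest, against 1.17 times among controls. The control mean was 229 ± 20.2 CPM against 158 ± 6.83 CPM after injury (SD, n = 3 each). The estimated log2 fold change was -0.53 ± 0.10 (standard error; edgeR, adjusted p = 0.0611, unadjusted p = 0.00135), and the 95% interval of the ratio was 0.584 to 0.818. By number the differences were -0.35, -0.68 and -0.56. The smallest belonged to number 1, whose control had the lowest catalase level of the 3. Without control replicate 1 the difference was -0.60 and passed the test (edgeR, adjusted p = 0.0429), in a fit where 2.26% of genes passed. With any other library left out Cat did not pass, with an adjusted p of up to 0.252 (edgeR). Sod1 did not pass whichever library was left out (edgeR, adjusted p from 0.0737 to 0.26).

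Cat and Sod1 ranked 320 and 337 of 14481 genes by p, behind the 196 genes that passed. DESeq2 and limma-voom with sample weights, which called more genes, placed the pair under an adjusted p of 0.05. DESeq2 gave adjusted p = 0.00111 for Cat and 0.00168 for Sod1, where 9.95% of genes passed, and weighted limma-voom gave 0.0214 and 0.0348, where 5.79% passed. Unweighted limma-voom called 0 of the 5 members, with 0.856% of genes called. At an unadjusted p under 0.05 it had 3 members and 21.8% of all genes.

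Hmox1 (ENSRNOG00000014117), the inducible haem-degrading enzyme, had the largest difference of the 5 and also the largest spread. Controls had 342, 103 and 216 Hmox1 counts, which is 20.5, 5.75 and 15.6 CPM. Injured animals had 642, 422 and 623 counts, which is 34.2, 25.6 and 36.5 CPM. The lowest injured animal lay above the highest control, but controls themselves spanned 3.57-fold because control replicate 2 was far below the others. Injured animals spanned 1.42-fold.

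The control mean of Hmox1 was 13.95 ± 7.52 CPM against 32.1 ± 5.72 CPM after injury (SD, n = 3 each). The estimated log2 fold change was 1.20 ± 0.43 (standard error; edgeR, adjusted p = 0.177, unadjusted p = 0.0268). The 95% interval of the fold change ran from 1.14 to 4.67, so the data leave its size poorly determined. Of all tested genes, 4.41% had a higher fold change. Without control replicate 2 the fold change was 1.78 (log2 0.83; edgeR, adjusted p = 0.131), and without control replicate 1, the highest control, it was 3.03 (log2 1.60; edgeR, adjusted p = 0.0992). DESeq2 placed it just under the threshold (log2 1.21, adjusted p = 0.0492). Against controls of the same number, injured animals were higher by 0.74, 2.16 and 1.23 on the log2 scale, and with the replicate block the adjusted p was 0.0656 (edgeR).

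Counting error was smaller than this spread. The lowest Hmox1 count, 103, carries a counting SD of 0.14 on the log2 scale, while the SD between control animals was 0.965. In injured animals that SD was 0.271.

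Nqo1 (ENSRNOG00000012772), the quinone reductase, was measured at 168, 89.7 and 81.4 CPM in the 3 controls, and at 175, 95.8 and 145 CPM after injury. The groups overlapped, and in both of them replicate 1 was the highest animal. The control mean was 113 ± 47.6 CPM against 138 ± 39.8 CPM after injury (SD, n = 3 each). The estimated log2 fold change was 0.29 ± 0.33 (standard error; edgeR, adjusted p = 0.646). The 95% interval of the fold change, 0.710 to 2.11, holds a doubling as well as a decrease nearly as large as those estimated for Cat and Sod1. By number the differences were 0.06, 0.10 and 0.83. In numbers 1 and 2 the control and the injured animal had nearly the same Nqo1 level, and number 3 had the largest difference. These are different animals that no label links, so another matching would give other differences. Without control replicate 1 the fold change was 1.62 and without injured replicate 1 it was 1.06, neither past the threshold (edgeR, adjusted p = 0.165 and 0.922). The animal with the lowest Hmox1 was control replicate 2, while the lowest Nqo1 was in control replicate 3.

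Sod2 (ENSRNOG00000019048), the mitochondrial dismutase, was measured at 178, 187 and 185 CPM in the 3 controls, and at 168, 219 and 182 CPM after injury. Controls were almost identical, within 1.05-fold, while injured replicates 1 and 2 lay on either side of all controls. The control mean was 183 ± 4.53 CPM against 189.6 ± 26.1 CPM after injury (SD, n = 3 each). The estimated log2 fold change was 0.05 ± 0.12 (standard error; edgeR, adjusted p = 0.849). The 95% interval of the fold change was 0.851 to 1.26, which leaves out a change of the size estimated for Hmox1, and also one as low as the estimates for Cat and Sod1. Its sign rested on 1 animal, since the log2 fold change was -0.065 without injured replicate 2.

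**Figure D2:**
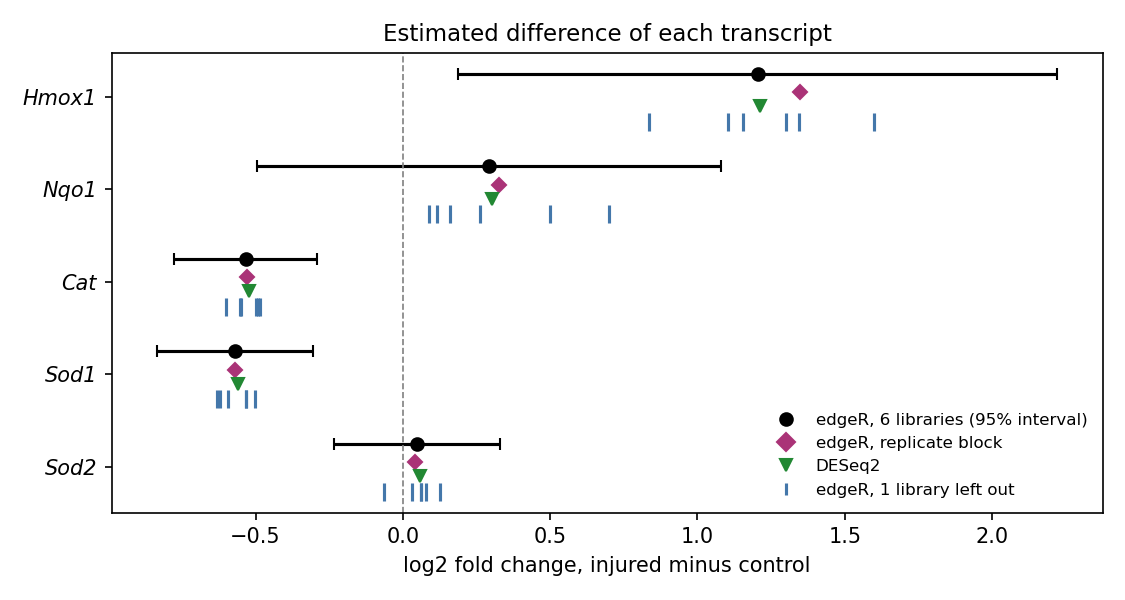
Estimated log2 fold change of each transcript (injured minus control) with all 6 libraries and its 95% interval, with the replicate block, with DESeq2 and with 1 library left out at a time. The estimates for Cat and Sod1 stay between -0.63 and -0.49, those for Hmox1 spread from 0.83 to 1.60, and those for Sod2 lie on both sides of 0.

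The members differed in how much single animals varied. The biological coefficient of variation (BCV), the part of the spread between animals that counting does not give, was 0.374 for Hmox1 and 0.303 for Nqo1, above that of 83.8% and 73.8% of tested genes. It was 0.150 for Cat, 0.151 for Sod1 and 0.159 for Sod2, where 11.6%, 12.4% and 20.0% of tested genes had a lower value. The median over all tested genes was 0.209. Hmox1 and Nqo1 also had wide intervals, and Cat, Sod1 and Sod2 had narrow ones. The smaller difference in Sod1 had a lower p than the larger one in Hmox1. Shrinkage toward the trend over all genes enters each of these BCV values.

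**Figure D3:**
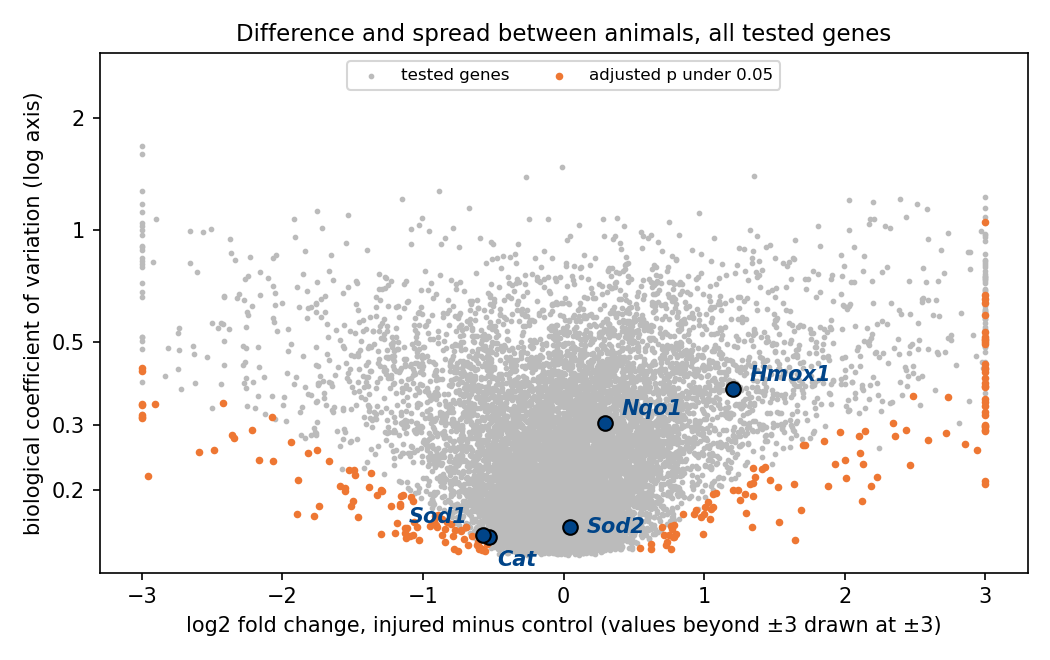
Log2 fold change (injured minus control, horizontal) and BCV (vertical, log axis) of the 14481 tested genes, with the 196 genes that passed the test in orange and the 5 members in blue. Cat and Sod1 sit at a low BCV of about 0.150 at the edge of the called genes, Hmox1 has the largest difference of the 5 at a BCV of 0.374, and Sod2 lies near 0.

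Ratios of counts within a library do not depend on how libraries are scaled, so all 10 ratios between the members were compared. A ratio of this kind shows unequal change and not which gene changed. In 6 of the 10 the groups did not overlap: the 4 ratios of Hmox1 to each other member, and the ratios of Cat and of Sod1 to Sod2. Over all pairs of the 14339 tested genes with a count in every library, the groups did not overlap in 28.2% of ratios. The 10 ratios share genes and are not separate results. With 3 animals against 3 an exact permutation test cannot give a two-sided p under 0.1, which each of these 6 reached, with an adjusted p of 0.167 over the 10 ratios.

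The ratio of the cytosolic to the mitochondrial dismutase separated the groups. Sod1 over Sod2 was -0.28, -0.34 and -0.55 on the log2 scale in controls and -0.79, -1.11 and -1.09 in injured animals, a mean shift of -0.61 to 0.655 of the control ratio (exact permutation p = 0.1, two-sided, n = 3 each). Cat over Sod2 shifted by -0.57. Cat over Sod1 shifted by 0.04 and overlapped fully between the groups (exact permutation p = 0.7, two-sided, n = 3 each), against an SD of 0.222 in controls and 0.180 in injured animals. Its sign turned without control replicate 1 (-0.071) or injured replicate 3 (-0.053).

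Hmox1 over Sod1 went from -2.84, -4.68 and -3.02 in controls to -1.50, -1.98 and -1.23 in injured animals, a mean log2 shift of 1.94, and Hmox1 over Cat shifted by 1.90. The order of these 2 shifts turned when control replicate 1 or injured replicate 3 was left out. Hmox1 over Sod2 shifted by 1.33, but the groups barely separated, with control replicate 1 at -3.12 and injured replicate 2 at -3.09. Hmox1 over Nqo1 shifted by 1.05, from -3.03, -3.96 and -2.39 to -2.35, -1.90 and -1.99. The nearest values of the groups, control replicate 3 and injured replicate 1, were close together. Control replicate 2, with the lowest Hmox1, weighed on all 4 ratios: without it the shifts were 1.36 against Sod1, 1.32 against Cat, 0.77 against Sod2 and 0.63 against Nqo1. The 3 ratios of Nqo1 to Cat, Sod1 and Sod2 overlapped between the groups, with shifts of 0.86, 0.90 and 0.29. The shift against Sod2 ranged from 0.016 without injured replicate 1 to 0.638 without injured replicate 2.

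**Figure D4:**
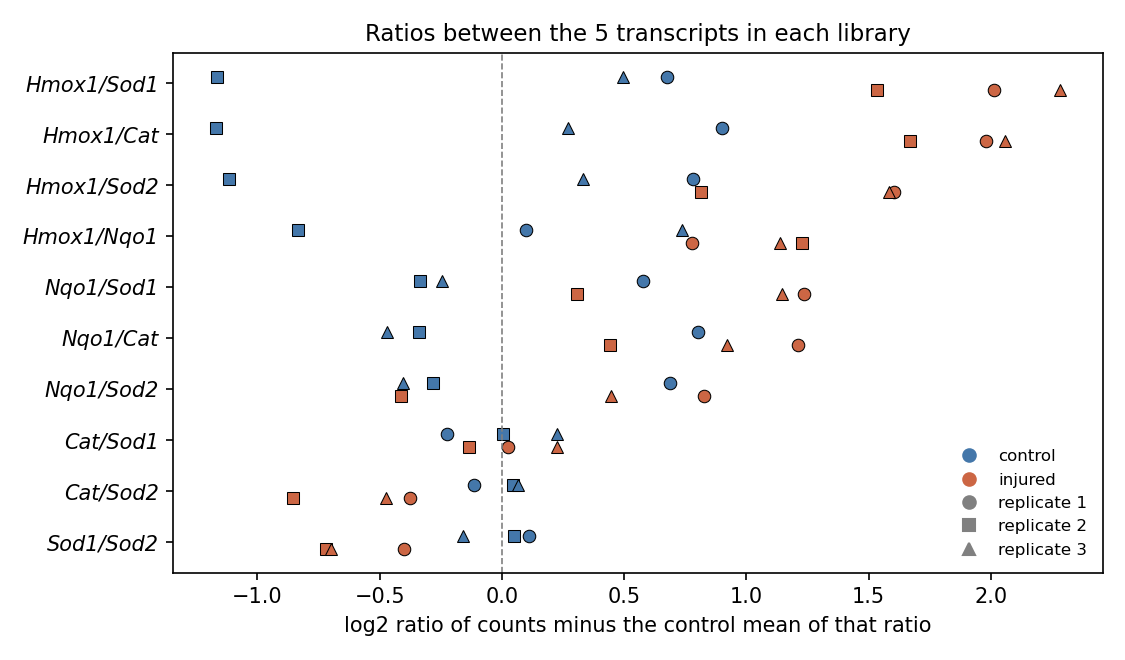
Log2 ratio of counts for each of the 10 pairs of members in each library, drawn relative to the control mean of that ratio. Ratios with Hmox1 lie to the right in injured animals, Cat/Sod2 and Sod1/Sod2 lie to the left, and Cat/Sod1 stays around 0 in both groups.

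To see how common each profile was, the centred log2 CPM values over the 6 libraries were compared with those of 13658 tested genes at a mean of at least 1 CPM, by the root mean square difference. The gene closest to Sod2 lay at a difference of 0.0392 and the one closest to Nqo1 at 0.0751. The closest genes to the other members were ENSRNOG00000021230 for Cat (0.0308), ENSRNOG00000050052 for Sod1 (0.0378) and ENSRNOG00000017531 for Hmox1 (0.112). These are given by identifier because the count table holds no symbols. Within a difference of 0.2 lay 1636 genes for Cat, 1170 for Sod1 and 4031 for Sod2, but 84 for Nqo1 and 14 for Hmox1. A flat profile is matched by more genes than a steep one, and the root mean square of the profile itself was 0.115 for Sod2, 0.277 for Cat and 0.303 for Sod1, against 0.444 for Nqo1 and 0.864 for Hmox1. Of the 15 genes closest to a member (3 for each), 1 passed the test (edgeR). Cat and Sod1 were each other's closest member (0.166), yet 826 genes lay closer to Cat than Sod1 did, and 517 lay closer to Sod1 than Cat did. Their likeness was thus shared with many other transcripts of the same 6 libraries.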

How the data were processed

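Polyadenylated RNA of 3 control and 3 injured rats was sequenced as paired-end reads. Raw counts per gene were deposited, with no normalization, and library totals ranged from 14181903 to 18376578. The submitters' processing notes name HISAT2 2.2.1 and HTSeq 0.6.1, besides fastp 0.24.1, bcl2fastq 2.20.0.422 and DESeq2 1.50.2, and the build Rnor_6.0. What each tool was used for, the annotation, the strand setting and the treatment of multi-mapped reads were not given in the sources used, so reads of near-identical copies or overlapping genes may be split or merged.

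The table lists Ensembl identifiers only. The 5 members were paired with symbols by the rule that defined them, and 0 of 32623 identifiers matched the reference table of 47357 genes. The 6 lists of other pathway genes and the 9 lists of cell type markers could therefore not be used, and the tissue label was not checked against markers. The part of other cell types in these results was not tested. The members and lists were chosen with earlier results of these data known. Named genes were the 5 members and, by rule, the genes closest to each in profile.

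With edgeR 4.0.16 (R 4.3.3), counts were filtered by filterByExpr (minimum count 10, minimum total 15), scaled by TMM and tested with the quasi-likelihood F test on all 14481 genes, with Benjamini-Hochberg adjustment and no covariate. Standard errors are the absolute log2 fold change over the square root of F, and intervals use the moderated degrees of freedom. The profile comparison added 0.5 CPM before logs. On simulated counts, a condition was placed on the median estimated fold change only, and none on calls, error rate or power. Same-numbered libraries came from different animals. Their deviations from the group means correlated across genes at 0.392, 0.398 and 0.114 for numbers 1 to 3, all above the limit of 0.1. No pairing is established by these values alone, because those for libraries of unlike number were not kept and no label links the animals. Alternatives were 4 scalings, robust edgeR, DESeq2 1.42.0, voom in limma 3.58.1 (plain or with sample weights), 2 filters, the replicate block and leaving out each library.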

Additional observations from a re-analysis of the deposited data

How the results depend on the processing

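The directions of Hmox1, Nqo1, Cat and Sod1 were kept in all 17 alternatives, and no alternative placed Nqo1 or Sod2 past the threshold. Hmox1, Cat and Sod1 passed under some settings. With DESeq2 the log2 fold changes were 1.21 for Hmox1, -0.52 for Cat and -0.56 for Sod1. With weighted limma-voom they were -0.55 for Cat and -0.55 for Sod1. With the replicate block Sod1 passed at -0.57, and the block changed no other member's call. Leaving out 1 library gave 0.83 to 1.60 for Hmox1, 0.09 to 0.70 for Nqo1, -0.60 to -0.49 for Cat (past the threshold without control replicate 1), -0.63 to -0.50 for Sod1 and -0.065 to 0.126 for Sod2, whose sign turned without injured replicate 2. The shift of the Cat over Sod1 ratio ranged from -0.071 (without control replicate 1) to 0.151, and was -0.053 without injured replicate 3. The other 4 scalings moved Cat between -0.55 and -0.46 and Sod1 between -0.59 and -0.50, and under each of them the groups of Hmox1, Cat and Sod1 did not overlap.

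Over all genes, 103 were called higher and 93 lower. DESeq2 called 770 and 669, weighted limma-voom 344 and 494, the replicate block 287 and 259, and limma-voom 55 and 69. Scaling by library size alone called 129 and 67. Leaving out 1 library gave 2 to 134 higher and 0 to 200 lower. The fewest calls came without injured replicate 3. The cause was not tested. With 3 animals a group, the lack of a call does not show that a member stayed the same. The counting SD of a member in a library was at most 0.14 on the log2 scale.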
